A study of Mus musculus with 18 samples.

Results

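The expression of 7 genes of cholesterol synthesis was followed through 2 brain regions of mice in 2 pain models, the BNST (bed nucleus of the stria terminalis, a part of the extended amygdala) and the prelimbic part of the medial prefrontal cortex (mPFC). The 7 genes were Hmgcs1, Idi1, Fdft1, Sqle, Lss, Dhcr7 and Insig1, chosen by name and matched to the Ensembl gene identifiers of a table of raw read counts that lists 55401 identifiers, and each of the 7 was among the 18994 genes that passed the filter on low counts and were tested. The set had been named for cholesterol synthesis and uptake, but it holds 6 enzymes of synthesis and the regulator Insig1, and none of the 7 is a receptor that takes up lipoproteins, so uptake genes are described separately further on. RNA was taken from male C57BL/6 mice, 6 to 8 weeks old and without a transgene or deletion: formalin mice received 10 µL of 1% formalin and were sampled at 24 h as a model of acute pain, CFA mice received 10 µL of 50% complete Freund's adjuvant and were sampled at 72 h as a model of persistent pain, and control mice were left untreated according to the series labels. Each of the 6 groups (2 regions by 3 treatments) held 3 libraries, 18 in all, with 14781315 to 23408503 counted reads per library. By the protocol 3 brains were taken in each treatment group and both regions were dissected from each of them, so a library stands for 1 mouse and the regions share mice. The numbers in the study's library names, read here as brains, tie 8 pairs of libraries across the regions, of which 2 are control pairs, as the control names hold 4 numbers. The effects of agent and of time cannot be told apart between the 2 pain models. The regions were separated by Gad2, which makes GABA (432 to 767 CPM in the BNST, 161 to 200.009 CPM in the mPFC), and Slc17a7, a glutamate transporter of cortical neurons (11.7 to 377 CPM and 1502 to 1892 CPM), the 377 CPM being in BNST formalin library 1, against 54.3 and 62.4 CPM in the other 2 of that group. BNST control libraries 2 and 3 and BNST CFA library 2 also stood apart from their groups, as described further on. Each comparison was fitted again without each of the 18 libraries in turn, and a call among the 7 genes that changed is given beside its result.

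Brain cells make nearly all of their own cholesterol, because lipoproteins of the blood do not cross the blood-brain barrier, and the myelin of oligodendrocytes holds most of it. Synthesis runs from acetyl-CoA through mevalonate to squalene, which is oxidised and closed into the sterol rings, and the rings are then trimmed to cholesterol. The enzymes are switched on together by the transcription factor SREBP2: when membrane sterol falls, SREBP2 leaves the endoplasmic reticulum, is cleaved and binds sterol regulatory elements in the promoters of its targets, usually beside sites for the cofactors NF-Y (the CCAAT box) and Sp1 (the GC box). Insig1 holds SREBP2 back in the endoplasmic reticulum and is itself a target of SREBP2, so its transcript is widely read as a gauge of the pathway.

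The promoters of 4 of the 7 genes are shown: Hmgcs1 had the highest level, Insig1 is the gauge of the pathway, and Lss and Dhcr7 had the only adjusted p under 0.05 in the comparisons of treatments within a region. Each line gives the 250 bases before the RefSeq start of the gene (assembly GRCm38.p6, plus strand, 5′ to 3′). Capitals mark the letters TCACNCCA (an SRE-like motif), CCAAT (the CCAAT box) and GGGCGG (the GC box), each searched on both strands, so that ATTGG and CCGCCC are matches on the opposite strand, and no 2 marked matches overlap.
Hmgcs1: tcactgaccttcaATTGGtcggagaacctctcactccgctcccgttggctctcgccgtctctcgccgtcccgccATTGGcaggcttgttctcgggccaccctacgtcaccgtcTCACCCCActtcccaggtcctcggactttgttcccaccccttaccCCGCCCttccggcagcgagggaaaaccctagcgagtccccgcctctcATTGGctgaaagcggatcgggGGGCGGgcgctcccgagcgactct
Insig1: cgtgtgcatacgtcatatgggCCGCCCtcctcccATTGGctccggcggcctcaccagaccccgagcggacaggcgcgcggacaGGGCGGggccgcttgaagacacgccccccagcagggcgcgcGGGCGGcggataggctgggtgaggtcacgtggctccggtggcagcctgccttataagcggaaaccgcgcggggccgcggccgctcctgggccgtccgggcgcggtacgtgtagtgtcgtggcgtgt
Lss: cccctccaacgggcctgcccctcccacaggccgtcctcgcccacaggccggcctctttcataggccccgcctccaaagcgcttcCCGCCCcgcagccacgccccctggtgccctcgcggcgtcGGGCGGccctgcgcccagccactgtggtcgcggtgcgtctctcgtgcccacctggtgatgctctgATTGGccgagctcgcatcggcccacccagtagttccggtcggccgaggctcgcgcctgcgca
Dhcr7: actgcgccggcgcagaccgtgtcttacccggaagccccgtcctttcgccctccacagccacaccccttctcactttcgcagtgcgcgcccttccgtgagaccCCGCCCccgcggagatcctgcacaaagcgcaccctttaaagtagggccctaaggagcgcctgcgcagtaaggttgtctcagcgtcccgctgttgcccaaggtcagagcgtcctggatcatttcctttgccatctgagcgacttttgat
These windows lie at chr13:119690101-119690350 (Hmgcs1), chr5:28071162-28071411 (Insig1), chr10:76531355-76531604 (Lss) and chr7:143822917-143823166 (Dhcr7, which has 3 RefSeq starts; the window of 1 of them is shown). The Hmgcs1 window held 1 SRE-like match, 137 to 130 bases before the start, with 3 CCAAT boxes and 2 GC boxes. The Insig1 window held no SRE-like match, 1 CCAAT box and 3 GC boxes, the Lss window 1 CCAAT box and 2 GC boxes, and the Dhcr7 window 1 GC box and neither of the other motifs. The Idi1 window, not shown, held 2 CCAAT boxes and 1 GC box. Of 32817 promoter windows of the same length, 3.67% held the SRE-like letters, 33.8% a CCAAT box and 32.7% a GC box, so the last 2 motifs are frequent in any promoter. A match describes letters in this window and shows neither binding nor its lack, and Sqle and Fdft1 were not among the promoters matched.

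The 7 genes were expressed in every library of both regions. On the scale that corrects for transcript length (TPM, read counts per length of transcript, set to the same total in each library), Hmgcs1, which condenses acetyl-CoA units into HMG-CoA, stood highest, with a library range of 142 to 232 TPM. Insig1 followed with 80.1 to 124 TPM. Fdft1, the squalene synthase, ranged from 49.998 to 86.1 TPM, and Sqle, which oxidises squalene, from 37.8 to 60.8 TPM, so that these 2 ranges overlapped. Idi1, which isomerises the isoprenoid building block, ranged from 28.8 to 39.7 TPM. Dhcr7, which performs a last reduction on the way to cholesterol, had 16.0 to 25.7 TPM, and Lss, which closes the sterol rings, had 11.6 to 21.2 TPM. The order of the 7 genes by group mean TPM was the same in all 6 groups, although the library ranges of Insig1 and Fdft1, of Sqle and Idi1 and of Dhcr7 and Lss overlapped as well. Between libraries the levels of a single gene varied little: the highest library stood 1.47 times (Idi1) to 1.95 times (Fdft1) above the lowest in CPM (counts set to the same library size, scaled by TMM), the scale used from here on.

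None of the 7 genes passed the test for differential expression after either treatment in either region. The test (edgeR quasi-likelihood over all genes, Benjamini-Hochberg adjusted p under 0.05 and a log2 fold change of more than 0.5 in size) was applied to 6 comparisons within a region, and 0 of the 42 values of the 7 genes passed. Over all genes the same rule called 0.3% for formalin against control in the BNST, 11.9% for CFA against control in the BNST and 6.87% for formalin against CFA in the BNST. In the mPFC it called 0.269%, 0.632% and 0.932% for the same 3 comparisons. DESeq2 and limma-voom called 0 of the 7 in each of the 6 comparisons as well, and at an unadjusted p under 0.05 edgeR gave 0, 2 and 3 of the 7 in the BNST (19.6%, 36.5% and 30.8% of all genes) and 2, 2 and 0 in the mPFC (14.1%, 13.8% and 15.4% of all genes). The 42 log2 fold changes lay between -0.37 and 0.36, with standard errors of 0.083 to 0.15, and 38 of their 95% intervals stayed inside the fold minimum on both sides, the widest bounds being -0.66 and 0.56. The fit gives each gene 1 spread for all 6 groups. The spread of the BNST control libraries, described further on, thus also enters the standard errors, intervals and adjusted p of the mPFC comparisons. In 2 of the 42 cases the adjusted p was under 0.05 with a fold change below the minimum, which is 1 of 7 for CFA against control in the BNST, beside 22.7% of all genes, and 1 of 7 for formalin against CFA in the BNST, beside 14.9%. The comparisons with control share their control libraries, so they are not independent of each other.

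**Figure D1:**
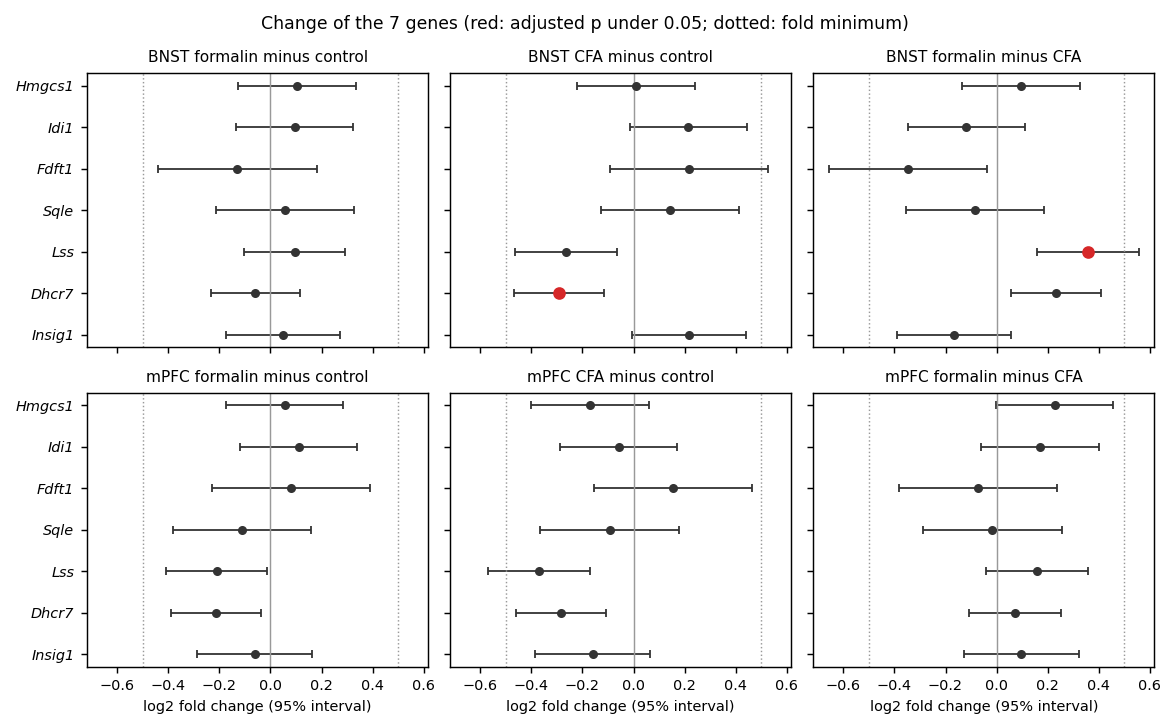
Log2 fold change (x axis) of the 7 genes (y axis) in the 6 comparisons within a region, with the 95% interval of the edgeR fit as a bar; red points have an adjusted p under 0.05 and the dotted lines mark the fold minimum of 0.5 on the log2 scale. The points lie between -0.37 and 0.36, and the red ones are Dhcr7 for CFA against control and Lss for formalin against CFA, both in the BNST.

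**Figure D2:**
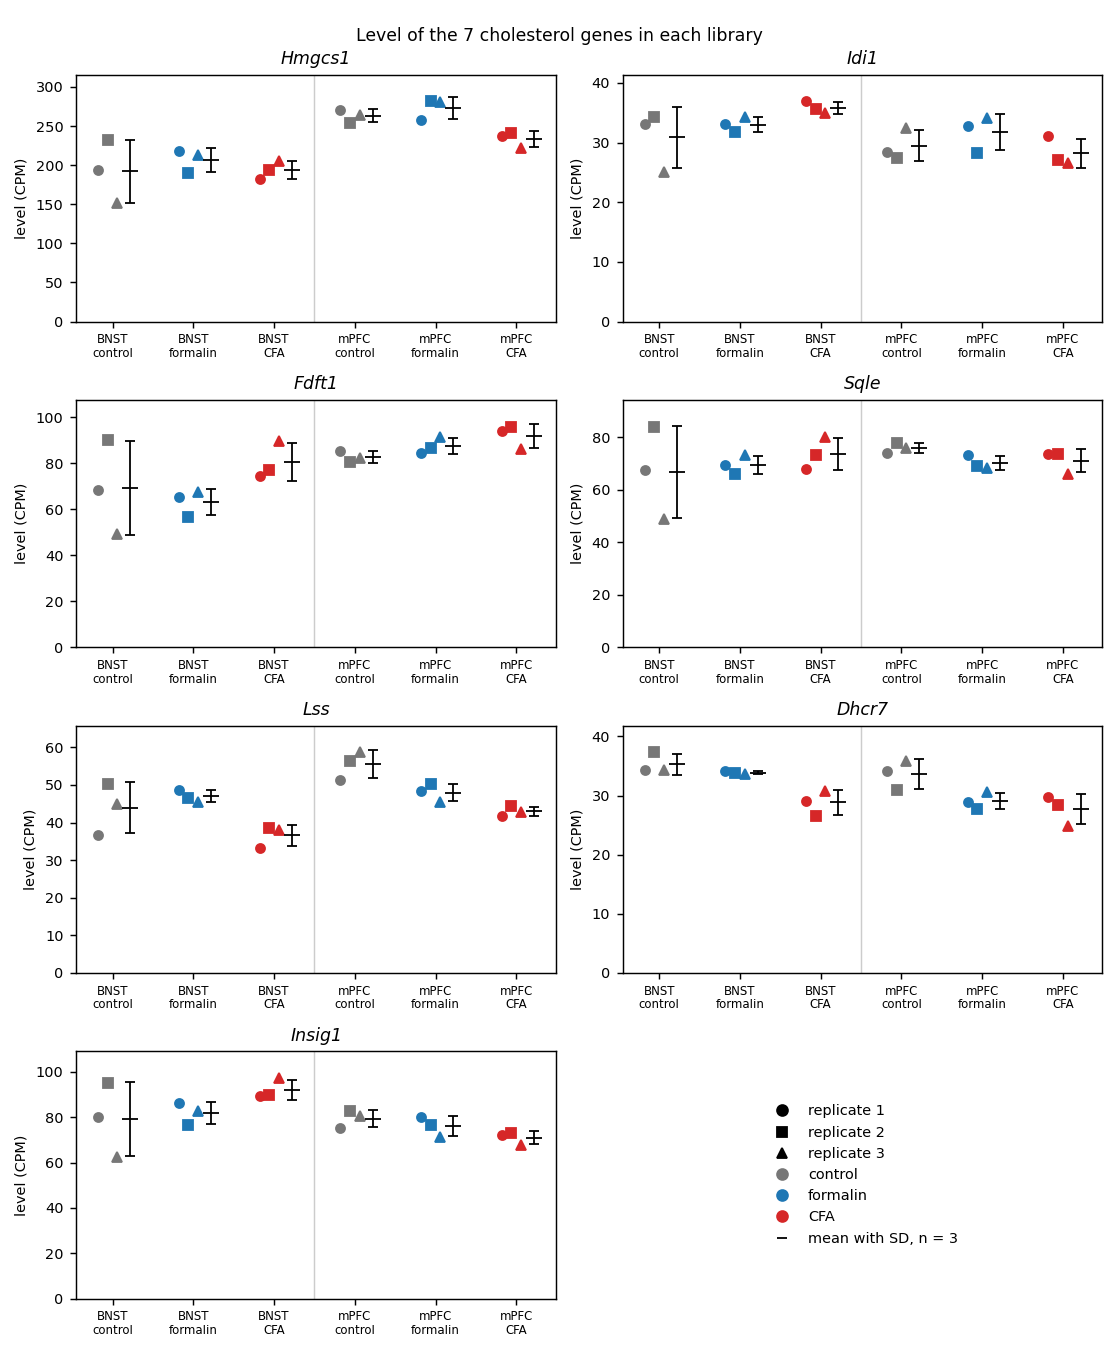
Level in CPM (y axis, from 0) of each of the 7 genes in the 18 libraries, grouped by region and treatment (x axis); symbols are the single libraries and the bar is the mean with SD (n = 3). The BNST control libraries spread most for each gene but Dhcr7, from 49.1 to 90.1 CPM for Fdft1, while Lss sits lower after CFA than in control in the mPFC.

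Hmgcs1 (chr13:119690379-119708260, plus strand) was lower in each BNST library than in the mPFC libraries of the same treatment. In the BNST its level was 193.9, 231.7 and 151.1 CPM in the control libraries, 218.0, 189.5 and 212.9 after formalin and 181.9, 193.6 and 205.7 after CFA. The mPFC libraries had 270.4, 254.4 and 264.3 CPM in control, 257.3, 282.0 and 280.9 after formalin and 237.4, 241.5 and 222.0 after CFA. Treated and control libraries overlapped in the BNST, and in the mPFC each CFA library lay below each control and each formalin library. The log2 fold change of CFA against control was 0.01 in the BNST (SE 0.11, edgeR adjusted p = 0.96) and -0.17 in the mPFC (SE 0.11, edgeR adjusted p = 0.54). For formalin against control it was 0.10 in the BNST (SE 0.11) and 0.06 in the mPFC (SE 0.11).

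Idi1 (chr13:8885501-8892451, plus strand) showed the narrowest range. Its BNST levels were 33.2, 34.4 and 25.1 CPM in control, 33.1, 31.7 and 34.2 after formalin and 37.0, 35.6 and 34.9 after CFA. Its mPFC levels were 28.5, 27.5 and 32.4 CPM in control, 32.8, 28.3 and 34.2 after formalin and 31.0, 27.1 and 26.6 after CFA. Each BNST CFA library lay above each BNST control and formalin library, and the mPFC groups overlapped. The log2 fold change of CFA against control was 0.21 in the BNST (SE 0.11, 95% interval -0.01 to 0.44, edgeR adjusted p = 0.16).

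Fdft1 (chr14:63145150-63179578, minus strand) had the largest spread among controls. Its BNST levels were 68.4, 90.1 and 49.1 CPM in control, 65.4, 56.8 and 67.6 after formalin and 74.7, 76.9 and 89.9 after CFA. Its mPFC levels were 85.3, 80.4 and 82.4 CPM in control, 84.4, 86.8 and 91.2 after formalin and 94.0, 95.9 and 86.1 after CFA. The BNST control libraries enclosed the formalin and CFA libraries, which did not overlap each other. Formalin against CFA in the BNST gave a log2 fold change of -0.35 (SE 0.15, 95% interval -0.66 to -0.04, edgeR adjusted p = 0.12). Fdft1 shares 774 exon bases with Ctsb on the opposite strand, a lysosomal protease gene with 169155 counts over all libraries against 25675 for Fdft1, and the strand setting of the counting is not given in the sources used here, so its level is uncertain by the share of Ctsb reads it may hold or have lost.

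Sqle (chr15:59315077-59331192, plus strand), a slow step of the pathway, and Insig1 (chr5:28071363-28078662, plus strand) varied alike. Sqle had 67.6, 84.0 and 48.7 CPM in the BNST control libraries, 69.3, 66.0 and 73.1 after formalin and 67.9, 73.1 and 80.1 after CFA. In mPFC libraries it had 73.9, 77.6 and 75.9 CPM in control, 73.1, 68.9 and 68.4 after formalin and 73.6, 73.5 and 66.1 after CFA. The mPFC control libraries of Sqle lay above each treated mPFC library, the nearest by less than 1 CPM. Insig1 had 79.97, 95.2 and 62.5 CPM in the BNST control libraries, 86.4, 76.6 and 83.0 after formalin and 89.2, 89.7 and 97.3 after CFA. In the mPFC it had 75.1, 82.6 and 80.3 CPM in control, 79.9, 76.8 and 71.2 after formalin and 72.2, 73.2 and 67.7 after CFA. Each mPFC CFA library of Insig1 lay below each mPFC control library, and in the BNST each CFA library lay above each formalin library while the controls overlapped both. The log2 fold change of Insig1 for CFA against control was 0.22 in the BNST (SE 0.11, edgeR adjusted p = 0.15) and -0.16 in the mPFC (SE 0.11, edgeR adjusted p = 0.57). For Sqle the same values were 0.14 in the BNST (SE 0.13, edgeR adjusted p = 0.45) and -0.09 in the mPFC (SE 0.13, edgeR adjusted p = 0.82).

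Lss (chr10:76531588-76557138, plus strand) and Dhcr7 (chr7:143823145-143848410, plus strand), which close the sterol rings and perform a last reduction after them, were the 2 genes with negative fold changes after CFA in both regions. Lss had 36.8, 50.2 and 44.9 CPM in the BNST control libraries, 48.7, 46.6 and 45.6 after formalin and 33.3, 38.5 and 38.0 after CFA. The mPFC libraries had 51.4, 56.5 and 58.7 CPM in control, 48.4, 50.2 and 45.4 after formalin and 41.8, 44.3 and 42.9 after CFA. The 3 mPFC groups of Lss did not overlap and ran from control through formalin to CFA. For CFA against control Lss gave a log2 fold change of -0.26 in the BNST (SE 0.095, 95% interval -0.46 to -0.06, edgeR adjusted p = 0.053) and of -0.37 in the mPFC (SE 0.094, 95% interval -0.57 to -0.17, edgeR adjusted p = 0.077). Formalin against CFA in the BNST gave 0.36 for Lss (SE 0.094, edgeR adjusted p = 0.018), the first of the 2 values with an adjusted p under 0.05, and with the 9 BNST libraries fitted alone the adjusted p was 0.090. Without formalin library 1 it was 0.064, without formalin library 2 it was 0.052 and without CFA library 1 it was 0.081.

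Dhcr7 had 34.2, 37.3 and 34.2 CPM in the BNST control libraries, 34.2, 33.8 and 33.6 after formalin and 29.1, 26.6 and 30.8 after CFA. The mPFC libraries had 34.2, 31.0 and 35.9 CPM in control, 28.9, 27.8 and 30.5 after formalin and 29.8, 28.3 and 24.8 after CFA. The CFA libraries lay below the control libraries in both regions, the formalin libraries in the mPFC did so too, and those in the BNST also lay below the controls, the nearest pair being equal at the digits printed. CFA against control gave a log2 fold change of -0.29 in the BNST (SE 0.084, 95% interval -0.47 to -0.11, edgeR adjusted p = 0.019), the other value with an adjusted p under 0.05. In the mPFC it was -0.28 (SE 0.084, 95% interval -0.46 to -0.11, edgeR adjusted p = 0.13). The BNST value had an adjusted p of 0.075 without control library 2, 0.051 without CFA library 1, 0.082 without CFA library 2 and 0.16 in the lane 2 libraries described next. When the 9 mPFC libraries were fitted alone, the edgeR adjusted p for CFA against control was 0.0021 for Lss (log2 fold change -0.38) and 0.038 for Dhcr7 (log2 fold change -0.29), both under the fold minimum as before. That fit also called more of all genes than the fit of the 18 libraries, as given at the end. A lower adjusted p there is therefore not particular to these 2 genes.

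Counts of genes whose groups did not overlap were read against the share over all genes. For CFA against control in the mPFC, 6 of the 7 did not overlap (5 lower, with Fdft1 higher and Idi1 overlapping), where 25.6% of all genes did not. For formalin against control in the mPFC the count was 3 (Sqle, Lss and Dhcr7, each lower) beside 26.1% of all genes, and for formalin against CFA it was 2 (Hmgcs1 and Lss) beside 28.3%. In the BNST the count was 1 for formalin against control (Dhcr7) beside 22.3%, 2 for CFA against control (Idi1 higher, Dhcr7 lower) beside 31.5%, and 5 for formalin against CFA (Idi1, Fdft1, Lss, Dhcr7 and Insig1) beside 32.1%. The median log2 fold change of the 7 genes for CFA against control was 0.14 in the BNST and -0.16 in the mPFC, where the medians over all genes were 0.01 and 0.00.

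Cell markers also differed between the groups. In the mPFC, 3 of 11 oligodendrocyte markers were called lower after CFA (Mog, Opalin and Ugt8a) and the median of the 11 was -0.73 on the log2 scale, with a summed level of 1977 to 3146 CPM in control and 1357 to 1962 CPM after CFA. Endothelial markers (0 of 7 called) had a median of -0.77 in the same comparison. They summed to 120 to 154 CPM in control and 86.1 to 101 CPM after CFA. The oligodendrocyte markers of the BNST summed to 5201 to 7871 CPM in control, 7774 to 9571 CPM after formalin and 6573 to 9404 CPM after CFA. After formalin 0 of these 11 were called, with a median of 0.49. After CFA 1 was called higher (Ermn) and 1 lower (Opalin), with a median of -0.04. In the BNST, 8 of 8 striatal markers were called lower after CFA (summed level 1071 to 2608 CPM in control, 217 to 556 CPM after CFA), and 5 of 8 habenula and thalamus markers were called higher (185 to 257 CPM in control, 322 to 536 CPM after CFA). Choroid plexus markers summed to 23.5 to 731 CPM in BNST control, 2883 to 8734 CPM after formalin and 164 to 17591 CPM after CFA. None of the markers of these lists was at 0 in the groups named, apart from 2 habenula and thalamus markers at 0 in at least 1 BNST control library. The part of these markers in the levels of the 7 genes was not tested, and in tissue RNA fewer cells of a type cannot be told apart from less RNA per cell.

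For 6 of the 7 genes the coefficient of variation was larger in BNST control than in the other 5 groups, and for Dhcr7 it was 5.02% there against 9.16% in mPFC CFA, its largest. Control library 3 was the lowest of the 9 BNST libraries for 5 of the 7 genes (Hmgcs1, Idi1, Fdft1, Sqle and Insig1), at 68.4% to 75.6% of the median of the other 8, a position that 16.6% of all genes took. For Lss and Dhcr7 it stood at 107% and 102% of that median. Control library 2 was the highest of the 9 for 5 of the 7 (Hmgcs1, Fdft1, Sqle, Lss and Dhcr7), which 13.7% of all genes were. The coefficient of variation of Fdft1 was 29.7% in BNST control and 2.97% in mPFC control, and that of Sqle was 26.4% and 2.49%. Neuronal genes differed between the same libraries: Slc17a7 had 15.5, 120.5 and 11.7 CPM in BNST control libraries 1, 2 and 3, and Gad2 had 602.8, 432.4 and 766.7 CPM. Both genes were chosen after their values were seen, and their part in the spread was not tested.

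**Figure D3:**
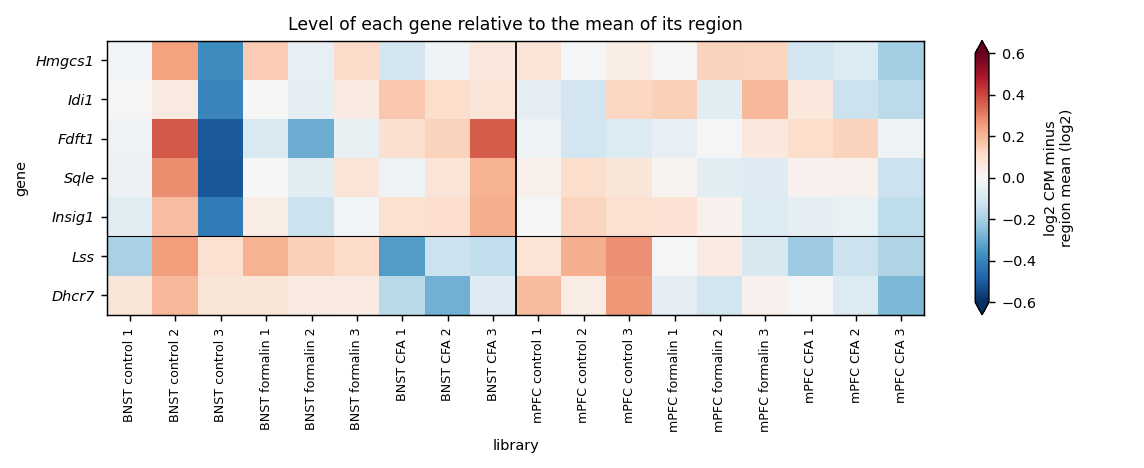
Log2 level of each of the 7 genes (rows) in each library (columns), as the difference from the mean of the 9 libraries of its region (colour scale, log2 units). BNST control library 3 is low for the upper 5 genes and not for Lss and Dhcr7, and the CFA libraries of both regions lie below the region mean for Lss and Dhcr7, mPFC CFA library 1 by less than 0.05 for Dhcr7.

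Sequencing lane was confounded with the BNST control group. Library names of the study carry a tag read here as the lane: BNST control libraries 1 and 2 came from lane 1, BNST formalin library 1 from lane 3 and the other 15 from lane 2, so that lane 1 gives no comparison and lane 2 holds a single BNST control, library 3. Within lane 2, where that lone control is assumed to vary like the other groups, 4 of the 7 were called higher for CFA against control in the BNST by edgeR, where that fit called 15.3% of all genes in either direction: Fdft1 (log2 fold change 0.71, adjusted p = 0.00087), Sqle (0.59, adjusted p = 0.0012), Insig1 (0.55, adjusted p = 0.0012) and Idi1 (0.51, adjusted p = 0.014). Hmgcs1 had 0.35, Lss -0.30 and Dhcr7 -0.25 in the same fit. For formalin against control in the BNST, lane 2 gave 1 call, Sqle at 0.54 (edgeR adjusted p = 0.021), beside 1.9% of all genes. Lane, control library 3 and the BNST control group cannot be told apart here, and the comparison of formalin with CFA, which does not use the controls, kept its values for Lss (0.36 in both) and Fdft1 (-0.34 in lane 2 and -0.35 over all lanes).

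Whether the response differed between the regions was tested as an interaction. None of the 7 genes passed for formalin (0.158% of all genes did) or for CFA (4.17% of all genes), by edgeR, DESeq2 or limma-voom, and at an unadjusted p under 0.05 edgeR gave 1 of the 7 in each, beside 14.6% and 19.4% of all genes. For CFA the nearest was Insig1, with an effect 0.38 higher in the BNST than in the mPFC on the log2 scale (SE 0.15, 95% interval 0.06 to 0.69, edgeR adjusted p = 0.18). Without BNST control library 2 this became 0.53 (edgeR adjusted p = 0.023) and was called, beside 4.08% of all genes in that fit. Within lane 2, 5 of the 7 were called for CFA (Insig1 0.72, Sqle 0.70, Idi1 0.58, Fdft1 0.56 and Hmgcs1 0.53), where 8.04% of all genes were, and 1 for formalin (Sqle 0.65), where 1.8% were, each resting on BNST control library 3 alone. Dhcr7 differed least, with -0.01 for CFA (SE 0.12, 95% interval -0.26 to 0.24). With the brain as a block, a fit with 5 residual degrees of freedom, 0 of the 7 were called by edgeR for either treatment, and over all genes the share called fell to 0.0263% for formalin and 2.4% for CFA.

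Between the regions in control mice, 0 of the 7 passed both criteria by edgeR, DESeq2 or limma-voom, where edgeR called 26.6% of all genes and gave 2 of the 7 an unadjusted p under 0.05, beside 47.3%. Hmgcs1 was lower in the BNST by a log2 fold change of -0.45 (SE 0.11, 95% interval -0.68 to -0.22, edgeR adjusted p = 0.0031) and Lss by -0.34 (SE 0.094, 95% interval -0.53 to -0.14, edgeR adjusted p = 0.0083), both below the fold minimum, where 39.7% of all genes had an adjusted p under 0.05. Their control libraries did not overlap between the regions, which 48.5% of all genes showed too. Insig1 had 79.2 ± 16.3 CPM (SD, n = 3) in the BNST and 79.3 ± 3.87 CPM (SD, n = 3) in the mPFC. Within lane 2, Hmgcs1 (-0.80), Fdft1 (-0.75) and Sqle (-0.64) were called lower in the BNST, where that fit called 22.5% of all genes. Without BNST control library 2, Hmgcs1 was called at -0.61, beside 26.2% of all genes. With the brain as a block Hmgcs1 was called at -0.51 (edgeR adjusted p = 0.021), beside 20.2% of all genes, and Lss had -0.21 (edgeR adjusted p = 0.16). All 11 oligodendrocyte markers were called higher in BNST control, with a median log2 difference of 1.40, and their part in these levels was not tested.

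The levels of some pairs of the 7 genes went together across libraries, and most such values depended on the region or on BNST control libraries 2 and 3. After each library was set against the mean of its region, Sqle and Insig1 had a Pearson correlation of 0.91 over the 18 libraries (0.94 within the 9 BNST and 0.77 within the 9 mPFC libraries), and of 0.78 without BNST control libraries 2 and 3. Lss and Dhcr7 had 0.70, and 0.64 without these 2 libraries. Fdft1 and Sqle had 0.79, which became 0.46 without them, and Hmgcs1 and Sqle had 0.73, which became 0.24, while Hmgcs1 then had 0.57 with Lss and 0.50 with Dhcr7. Within the mPFC, Lss and Insig1 had 0.84, Sqle and Dhcr7 0.69, Sqle and Lss 0.60, Dhcr7 and Insig1 0.55 and Hmgcs1 and Sqle 0.09. Against the region means Fdft1 and Lss ran opposite, with -0.34 over all and -0.65 without the 2 libraries. With all 18 libraries set against the mean of their group instead, Lss and Dhcr7 had 0.085, Fdft1 and Lss 0.24 and Sqle and Insig1 0.95. The libraries share depth, dissection and treatment group between genes, so these values are a description.

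The genes whose levels were most like the 7 were chosen by the mean of the 7 correlations over the 18 libraries, among 12199 genes with a mean of at least 5 CPM. Of the first 10, 9 were Fxyd7 (0.63), Slc7a8 (0.60), 9130024F11Rik (0.59), Mvd (0.58), Hs6st1 (0.57), Hsd17b7 (0.55), Pcsk2 (0.54), Grm2 (0.54) and Slc30a3 (0.54). Mvd and Hsd17b7 are enzymes of the same pathway, of mevalonate metabolism and of sterol ring trimming. Fxyd7 had 7.18 to 22.5 CPM in BNST control and 45.6 to 49.6 CPM in mPFC control. The mean hides differences among the 7: Hsd17b7, Pcsk2, Grm2 and Slc30a3 had only -0.13 to 0.09 with Lss and with Dhcr7. Slc7a8 had 0.49 with Lss and 0.44 with Dhcr7. In BNST control Grm2 ranged from 7.49 to 56.8 CPM, and 9130024F11Rik was low, at 0.19 to 1.81 CPM. The coefficient of variation of the 9 genes in that group ran from 30.3% (Hsd17b7) to 103% (Slc30a3). The ranking was not repeated without BNST control libraries 2 and 3, so its dependence on them was not tested.

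Another 12 enzymes of sterol synthesis gave the same count as the 7: 0 of 12 were called by edgeR in each of the 6 comparisons within a region. At an unadjusted p under 0.05 it gave 0, 4 and 3 of the 12 in the BNST for formalin against control, CFA against control and formalin against CFA, and 1, 3 and 0 in the mPFC. DESeq2 and limma-voom called 1, Tm7sf2, a sterol reductase, for formalin against control in the mPFC (edgeR log2 fold change -0.51), and 0 in the other 5 comparisons. Their median log2 fold change for CFA against control was 0.13 in the BNST and -0.07 in the mPFC. Between the regions in control, 2 of the 12 were called lower in the BNST: Fdps, the farnesyl diphosphate synthase (-0.78, edgeR adjusted p = 0.042), and Tm7sf2 (-0.73, edgeR adjusted p = 0.00011). The level of Fdps was low, at 0.80 to 2.15 CPM in BNST control and 2.05 to 3.11 CPM in mPFC control. The Fdps call was lost in 9 of the 18 fits that left out a library, with values of -1.22 (without BNST control library 2) to -0.50 (without library 3) and adjusted p up to 0.19, and with the brain as a block (-0.59, edgeR adjusted p = 0.30). Where 26.6% of all genes were called in either direction, these were 2 of 12 and 0 of the 7.

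Genes around the pathway were called by edgeR in the BNST, in 3 of 4 further lists that hold 33 genes. Of the 33, 5 were called for CFA against control, 1 for formalin against control and 0 for formalin against CFA. Over all genes 11.9%, 0.3% and 6.87% were called in either direction. Scd1, the desaturase that makes monounsaturated fatty acids, was called higher after both treatments. It had 205.0, 257.1 and 244.0 CPM in BNST control, 341.6, 323.5 and 335.5 after formalin and 357, 408 and 367 after CFA, without overlap of either treatment with control. Its log2 fold change was 0.68 for CFA (SE 0.094, edgeR adjusted p = 9.1e-05) and 0.50 for formalin (SE 0.094, edgeR adjusted p = 0.040), and the formalin value was 0.46 (adjusted p = 0.080) in lane 2 and lost its call in 13 of the 18 fits that left out a library. It was the 1 of 9 genes of fatty acid synthesis to be called in each. The CFA effect on Scd1 was larger in the BNST than in the mPFC by 0.58 (edgeR adjusted p = 0.016), a call lost in 3 of the 18 fits that left out a library and with the brain as a block (0.53, edgeR adjusted p = 0.11).

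Of 7 genes of SREBP control, edgeR called 0 in each of the 6 comparisons within a region. At an unadjusted p under 0.05 it gave 2, 3 and 2 of the 7 in the BNST for formalin against control, CFA against control and formalin against CFA, and 0, 1 and 1 in the mPFC. DESeq2 called 1, Srebf1, the SREBP that drives fatty acid genes, for formalin against control in the BNST, and limma-voom called 0 in the 6 comparisons. For formalin against control in the BNST, DESeq2 also called more of all genes than edgeR, as given at the end.

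Of 8 genes of cholesterol uptake, 2 were called higher after CFA in the BNST, and both act in the lysosome after uptake rather than at the surface: Lipa, the lysosomal acid lipase (0.71, SE 0.19, edgeR adjusted p = 0.013), and Npc2, which carries cholesterol within the lysosome (0.70, SE 0.23, edgeR adjusted p = 0.042). BNST CFA library 2, which also held the 17591 CPM of choroid plexus markers, stood apart for both, at 43.8 CPM of Lipa against 28.3 and 22.96 in the other CFA libraries and at 137.9 CPM of Npc2 against 67.5 and 64.0. Without that library the values were 0.41 for Lipa (edgeR adjusted p = 0.063) and 0.25 for Npc2 (edgeR adjusted p = 0.18), and neither was called. The Npc2 call was lost in 15 of the 18 fits that left out a library and the Lipa call in 2 (the other being without BNST control library 3). Of 9 genes of cholesterol export and turnover, 2 were called higher: Apoe, the main apolipoprotein of the brain (1445 ± 25.9 CPM in control and 2067 ± 246 CPM after CFA, SD, n = 3, log2 fold change 0.52, edgeR adjusted p = 0.0015), and Nr1h3, the sterol-sensing receptor LXR alpha (0.78, SE 0.21, edgeR adjusted p = 0.012). The level of Nr1h3 was low, at 2.61 to 3.28 CPM in control and 4.36 to 5.72 CPM after CFA. Among markers of astrocytes, 2 of 10 were called higher in the same comparison (Gfap 1.14 and S100b 0.59), with a median of 0.40 on the log2 scale, a summed level of 4046 to 5469 CPM in control and 5114 to 5586 CPM after CFA and none at 0, and their part in these values was not tested. Apoe was 0.42 without CFA library 2, under the fold minimum, and 0.49 in lane 2. Nr1h3 was 0.74 in lane 2 (edgeR adjusted p = 0.097). In this comparison 4.89% of all genes were called higher and 7.06% lower, and the lists were chosen with earlier results of these data known. The CFA effect was not called different between the regions for these 4 genes by edgeR, with differences of 0.63 for Nr1h3 (adjusted p = 0.25), 0.53 for Npc2 (adjusted p = 0.41), 0.44 for Apoe (adjusted p = 0.088) and 0.34 for Lipa (adjusted p = 0.53). After formalin in the BNST, edgeR called none of the 4. Lipa, Npc2 and Apoe lay above control without overlap, where 22.3% of all genes did not overlap in either direction. Their log2 fold changes were 0.63 (edgeR adjusted p = 0.11), 0.49 (adjusted p = 0.26) and 0.34 (adjusted p = 0.11). The 4 genes were picked by their CFA calls against the same control libraries, so these positions are no separate support. Abca1 and Srebf1 of the lists, not called by edgeR either, also lay above control without overlap after formalin. DESeq2 called Lipa in that comparison. Nr1h3 overlapped control, at 0.23 (edgeR adjusted p = 0.57). For formalin against CFA in the BNST, edgeR called none of the 4. By limma-voom Nr1h3 was called, with an edgeR log2 fold change of -0.55.

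In the mPFC, edgeR called 0 genes of the 5 lists outside the 7 (the 12 sterol enzymes and the 33 further genes) in each of the 3 comparisons. It gave 7, 7 and 5 of them an unadjusted p under 0.05 for formalin against control, CFA against control and formalin against CFA. Over all genes the shares were 14.1%, 13.8% and 15.4%. DESeq2 and limma-voom called 1 for formalin against control, Tm7sf2, and 0 in the others.

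**Figure D4:**
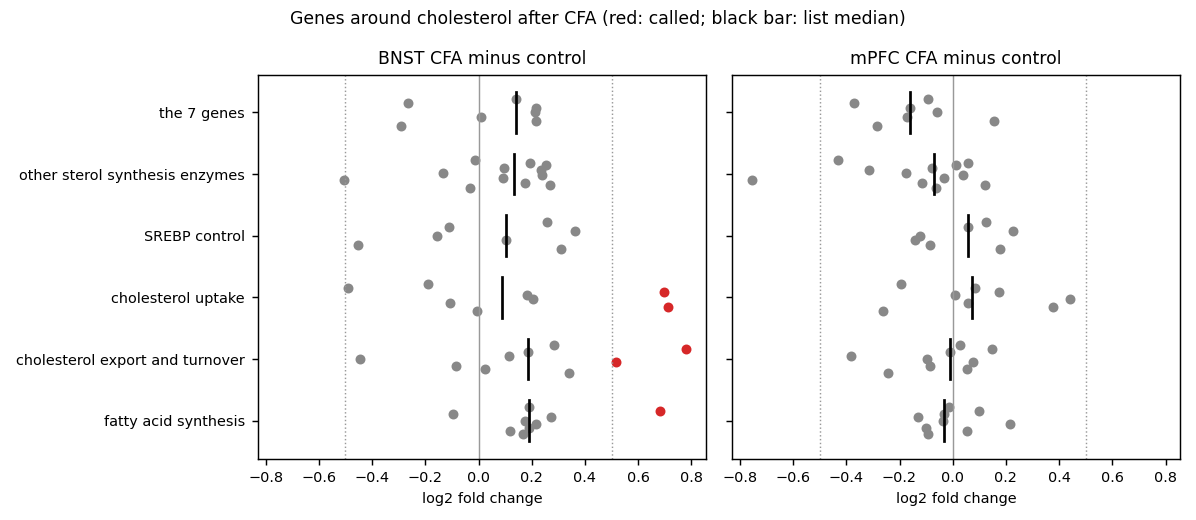
Log2 fold change (x axis) of CFA against control for the 7 genes and the 5 other gene lists (y axis) in the BNST (left) and mPFC (right); each point is a gene, red where called, and the black bar is the median of the list. In the BNST the red points are Lipa, Npc2, Nr1h3, Apoe and Scd1 between 0.52 and 0.78, and no point is red in the mPFC.

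Between the regions in control mice, 7 of the 33 genes of these 4 lists were called, where 26.6% of all genes were. Srebf1 was higher in the BNST by a log2 fold change of 1.03. Vldlr, a lipoprotein receptor, was higher by 0.73 and Npc2 by 0.67. Abca1, a cholesterol exporter, was higher by 0.65 and Mylip, which marks lipoprotein receptors for degradation, was lower, at -0.65. Elovl6 and Scd2, of fatty acid synthesis, were higher by 0.62 and 0.51. The Npc2 call was lost in 5 of the 18 fits that left out a library (edgeR adjusted p up to 0.11) and the Scd2 call in 2, and both were lost with the brain as a block (edgeR 0.60, adjusted p = 0.22, and 0.44, under the fold minimum).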

How the data were processed

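The BNST and prelimbic mPFC were profiled by sequencing of mRNA, 3 libraries in each of 6 groups. According to the study's methods, reads were trimmed (Trimmomatic 0.39), mapped on GRCm38 (HISAT2 2.2.1), sorted (SAMtools) and assigned to genes (featureCounts 2.0.1). The values deposited by the authors are raw read counts per gene, without normalization. The strand setting is not given in the sources used here. The authors' own fold changes and p-values were not used, and the sample names in their supplementary tables gave the lane tag.

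Symbols, positions and exon lengths came from GENCODE M21 by Ensembl identifier without version (260 of 55401 had no symbol), and promoters from RefSeq, which matched 5 of the 7 genes. The fit was made with edgeR 4.0.16 in R 4.3.3. Genes passed filterByExpr (minimum count 10, minimum total 15), TMM scaled the libraries, and a robust quasi-likelihood model took in the 18 libraries of the 6 groups, with 12 residual degrees of freedom. The thresholds of the study were used for a call, an adjusted p (Benjamini-Hochberg) under 0.05 together with a log2 fold change over 0.5 in size. The 7 genes are named in every comparison, genes of the 5 other lists where called within a region, and 9 of the first 10 genes by likeness. Some genes are not reported here and were left out of the lists and counts of lists, after the data had been examined. They stayed in the fit. Intervals cover 95%. The 7 genes and the lists were chosen with earlier results of these data known.

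Library totals of 14781315 to 23408503 gave the 7 genes 386 to 5714 counts per library. On simulated counts of 18994 genes for CFA against control in the BNST, a true log2 change of 0.75 was recovered in 68% of cases and one of 1 in 78%. Alternatives were DESeq2 1.42.0, limma-voom (limma 3.58.1), RLE scaling, no filter, no fold minimum, the 9 libraries of a region, each library left out, a replicate block, lane 2 and, added after seeing the data, the brain as a block across the regions, for which the library names give 8 pairs.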

Additional observations from a re-analysis of the deposited data

Results flagged for a closer look

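Scarb1 and Scd1 stood out because their response to CFA differed between the BNST and the mPFC by the interaction test of edgeR, where 4.17% of all genes passed. For Scarb1, a receptor for high-density lipoprotein, the CFA effect differed by -0.58 (SE 0.16, edgeR adjusted p = 0.047), from -0.49 in the BNST and 0.09 in the mPFC, and was lost in 14 of the 18 fits that left out 1 library, with adjusted p up to 0.13, and with limma-voom, RLE scaling, no filter, the replicate block, the brain as a block (edgeR adjusted p = 0.059) and lane 2. For Scd1 the CFA effect differed by 0.58 (SE 0.13, edgeR adjusted p = 0.016), and was lost in 3 of the 18 fits, with adjusted p up to 0.056, and with the brain as a block (0.53, edgeR adjusted p = 0.11).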

How the results depend on the processing

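Of the 504 comparisons of a member's fold change with an alternative other than leaving out 1 library, 468 kept direction and side of the threshold, 19 gained a call and 17 changed sign; of 1134 that left out 1 library, 1093, 2 and 39. The cause was not tested. Of the 7 genes, lane 2 called 1, 4, 0, 0, 0 and 0 in the 6 comparisons within a region (formalin against control, CFA against control, formalin against CFA, BNST first), 1 and 5 in the formalin and CFA differences between regions and 3 between control regions. Without a fold minimum, which calls more by construction, the counts were 1 for CFA against control and 1 for formalin against CFA in the BNST and 2 between control regions. Leaving out 1 library gave 0 in the 6 comparisons within a region and in the formalin difference, and 0 to 1 in the CFA difference and between control regions (1 without BNST control library 2, Insig1 and Hmgcs1). Replicate numbers did not pair libraries within a region (18 pairs, correlations -0.19 to 0.31, 4 over 0.1), and the replicate block called 0 of the 7 in each of the 9 comparisons. The 2 regions of a brain, paired by the number in the library names, had correlations of -0.03 to 0.17 (8 pairs, 2 over 0.1). With that brain as a replicate block, chosen after seeing the data, the counts of the 7 were 0 and 0 in the formalin and CFA differences and 1 between control regions (Hmgcs1 -0.51), and those over all genes were 5, 456 and 3835. Sign changed for Idi1 in the formalin difference (0.10), Lss and Dhcr7 in the CFA difference (-0.024 and 0.033) and Idi1 between control regions (-0.046).

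Sign changed in lane 2 for formalin against control in the BNST (Fdft1 0.37, Dhcr7 0.00094), the formalin difference (Idi1 0.31, Fdft1 0.28), the CFA difference (Dhcr7 0.042) and control regions (Idi1 -0.23); with DESeq2, RLE and no filter for Idi1 in the formalin difference (0.0099, 0.011 and 0.0026) and Dhcr7 in the CFA difference (0.0011, 0.0026 and 0.023); and with the BNST libraries alone for Hmgcs1 after CFA (-0.0020). Leaving out 1 library gave, for formalin against control in the BNST, -0.042 to 0.26 (Hmgcs1), -0.034 to 0.18 (Idi1), -0.33 to 0.11 (Fdft1), -0.13 to 0.26 (Sqle), -0.019 to 0.20 (Lss) and -0.096 to 0.20 (Insig1). For CFA against control it gave -0.14 to 0.17 (Hmgcs1) and -0.041 to 0.34 (Sqle) in the BNST and -0.13 to 0.015 (Idi1) in the mPFC, and for formalin against CFA in the mPFC -0.069 to 0.0068 (Sqle) and -0.00044 to 0.13 (Dhcr7). For the formalin difference it gave -0.096 to 0.21 (Hmgcs1), -0.14 to 0.072 (Idi1), -0.41 to 0.029 (Fdft1), -0.014 to 0.37 (Sqle) and -0.032 to 0.27 (Insig1). For the CFA difference it gave -0.13 to 0.30 (Fdft1), -0.0071 to 0.21 (Lss) and -0.077 to 0.053 (Dhcr7), and between control regions -0.017 to 0.20 (Idi1), -0.38 to 0.00079 (Sqle) and -0.16 to 0.14 (Insig1). The bounds for the 5 genes other than Lss and Dhcr7 came mostly without BNST control library 2 or 3.

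The count over all genes moved by more than 1.5 times as follows. Formalin against control in the BNST (57 genes) had 92 without a fold minimum, 409 with DESeq2, 1 with the BNST alone, 123 with the replicate block, 389 in lane 2 and 2 to 903 with 1 library left out. CFA against control in the BNST (2269) had 4310 without a fold minimum, 1352 with the BNST alone and 1647 to 2744 with 1 library left out, and formalin against CFA (1305) had 2835, 466 and 809 to 2414. In the mPFC, formalin against control (51) had 131 without a fold minimum, 133 with DESeq2, 252 with the mPFC alone, 13 with the block and 0 to 93 with 1 library left out; CFA against control (120) had 262 with DESeq2, 498 with the mPFC alone, 191 in lane 2 and 31 to 191; formalin against CFA (177) had 334 without a fold minimum, 311 with DESeq2, 552 with the mPFC alone, 275 in lane 2 and 50 to 266. The formalin difference (30) had 280 with DESeq2, 84 without filter, 94 with the block, 367 in lane 2 and 0 to 525, and the CFA difference (792) had 1642 in lane 2 and 497 to 895. In the simulation for CFA against control in the BNST, a true log2 change of 0.75 was called in 68% of cases, and smaller changes were not simulated.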
